A study of Mus musculus with 21 samples.

Results

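The Elovl genes, Elovl1 to Elovl7, encode the fatty acid elongases of the mouse. They were chosen by their symbols in the deposited count table, not by their values, and all 7 were found among 38087 genes. They were followed in epididymal white adipose tissue, the fat pad along the epididymis, of male C57BL/6j mice aged 15 to 16 weeks that had free access to food. One arm was conventionally raised and so carried a gut microbiota (12 libraries), and the other was germ-free, that is, without gut microbes (9 libraries). Fat was sampled at zeitgeber times 2, 6, 10, 14, 18 and 22 h after lights on (ZT02 to ZT22). Each conventional time had 2 libraries. Germ-free mice had 2 at ZT06, ZT10 and ZT22 and 1, bearing replicate number 2, at ZT02, ZT14 and ZT18. The design asks how fat differs without a microbiota and whether that depends on the time of day. The labels do not tie libraries to mice or say where each arm was housed, so a p-value here speaks only of library-to-library spread, which may be technical.

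Elongation lengthens a fatty acid in the endoplasmic reticulum by repeated cycles. An elongase performs the first and rate-limiting step of each cycle, joining the acyl chain to malonyl-CoA. A ketoacyl reductase, a dehydratase and an enoyl reductase then complete the cycle. The elongases differ in the chains they accept. Elovl6 lengthens palmitate, the product of fatty acid synthase, to stearate. Elovl5 and Elovl2 act on polyunsaturated chains. Elovl1, Elovl3 and Elovl7 act on saturated and monounsaturated chains, and Elovl4 makes the very longest ones, which are best known from retina, skin and brain.

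Total counts ranged from 24388294 to 48348181 per library. All 9 adipocyte markers (such as Adipoq and Plin1) were detected in both arms, with summed levels of 21481 to 33064 CPM (counts scaled to library size) in conventional and 23408.5 to 35808 CPM in germ-free libraries. Some libraries also carried RNA of marker genes of other tissues, and how it came there was not tested. The sum of 10 ciliated duct markers exceeded 5 times the median of all libraries in 6 libraries. These were conventional ZT02 replicates 1 and 2, ZT14 replicate 2 and ZT18 replicate 2, and germ-free ZT06 replicate 2 and ZT22 replicate 1. The sum of 12 liver markers did so in conventional ZT02 replicate 2 and germ-free ZT14 replicate 2. The sum of 10 epididymis epithelium markers did so in conventional ZT18 replicate 2 and in germ-free ZT06 replicate 1, ZT10 replicate 1 and both ZT22 libraries. In conventional ZT18 replicate 2, germ-free ZT10 replicate 1 and germ-free ZT22 replicate 2, most of this sum was a single gene, Crisp1. The sum of 8 testis germ cell markers did so in 7 libraries, with 172 CPM in conventional ZT22 replicate 1, 67.0 CPM in ZT14 replicate 1, 17.5 CPM in ZT02 replicate 2 and 15.3 CPM in ZT06 replicate 1, and with 79.1 CPM in germ-free ZT06 replicate 1, 56.6 CPM in ZT22 replicate 1 and 48.2 CPM in ZT02. The sum of 9 male accessory gland markers reached 1783 CPM in conventional ZT10 replicate 2 and at most 18.8 CPM elsewhere.

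The genes lie on 5 chromosomes. In GRCm38 coordinates of the GENCODE M21 annotation, Elovl6 (ENSMUSG00000041220) spans chromosome 3 from 129532355 to 129638495 on the plus strand. Elovl5 (ENSMUSG00000032349) spans chromosome 9 from 77917364 to 77984519 on the plus strand, and Elovl4 (ENSMUSG00000032262) lies on the minus strand of the same chromosome from 83778692 to 83806277. Elovl1 (ENSMUSG00000006390) is at 118428093 to 118432953 of chromosome 4 on the plus strand. Elovl2 (ENSMUSG00000021364) is at 41182381 to 41220405 on the minus strand and Elovl7 (ENSMUSG00000021696) at 108214404 to 108285683 on the plus strand, both on chromosome 13. Elovl3 (ENSMUSG00000038754) is at 46131897 to 46135694 of chromosome 19 on the plus strand. All are protein-coding. Counts cover the exons of each gene, and the annotation places exons of other genes on the opposite strand over small parts of 3 of them: 53 bases of Elovl1 (Cdc20), 10 bases of Elovl3 (Pitx3) and 34 bases of Elovl6 (Gm35986). Whether counting used the strand is not given in the sources used here, so reads over these bases cannot be told apart.

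Promoter windows are shown for Elovl6, Elovl5 and Elovl4, the 3 elongases that were higher in germ-free fat in at least 1 comparison. They come from the RefSeq promoter table of build GRCm38.p6, which held entries for 6 of the 7 genes, and they run from 250 bases before to 50 bases after the annotated start in the direction of transcription. Capitals mark matches to any of 6 short motifs searched on both strands.
Elovl6, chr3:129532136-129532435, plus strand: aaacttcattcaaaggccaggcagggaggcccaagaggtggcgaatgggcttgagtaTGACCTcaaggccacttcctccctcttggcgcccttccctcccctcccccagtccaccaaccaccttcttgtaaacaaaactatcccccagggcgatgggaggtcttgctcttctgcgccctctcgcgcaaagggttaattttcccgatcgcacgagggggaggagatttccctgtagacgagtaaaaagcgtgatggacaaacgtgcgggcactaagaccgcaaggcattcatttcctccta
Elovl5, chr9:77917115-77917414, plus strand: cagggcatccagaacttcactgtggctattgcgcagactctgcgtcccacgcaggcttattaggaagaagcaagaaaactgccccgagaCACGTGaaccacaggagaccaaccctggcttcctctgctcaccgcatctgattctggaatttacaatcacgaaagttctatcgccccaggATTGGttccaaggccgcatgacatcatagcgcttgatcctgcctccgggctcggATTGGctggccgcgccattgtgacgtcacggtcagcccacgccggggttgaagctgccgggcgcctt
Elovl4, chr9:83806256-83806555, minus strand: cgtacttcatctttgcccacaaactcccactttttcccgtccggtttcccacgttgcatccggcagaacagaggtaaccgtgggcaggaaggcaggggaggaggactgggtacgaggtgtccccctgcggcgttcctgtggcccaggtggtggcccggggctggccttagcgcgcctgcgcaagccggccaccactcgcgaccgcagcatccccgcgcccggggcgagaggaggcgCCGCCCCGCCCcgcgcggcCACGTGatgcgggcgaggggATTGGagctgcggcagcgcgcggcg
Positions below count from the start, with the first transcribed base as 0. The Elovl6 window held 1 match, a nuclear receptor half-site (AGGTCA, here TGACCT on the other strand) at -193 to -188. That motif occurs in 16.3% of all 32851 promoter windows of the same length. The Elovl5 window held an E-box (CACGTG, in 7.15% of windows) at -161 to -156 and 2 CCAAT motifs on the other strand at -71 to -67 and -17 to -13 (in 37.4% of windows). The Elovl4 window held an E-box at 5 to 10, a CCAAT motif on the other strand at 25 to 29, and 2 GC boxes (GGGCGG, in 35.7% of windows) on the other strand, at -14 to -9 and -9 to -4, which share a base. The 3 promoters thus had no motif in common among those searched. A sterol element core (TCACNCCAC) and a D-box core (TTATGNAA), present in 1.24% and 3.38% of windows, had no match in any of these 3 windows. GC made up 55.7% of the Elovl6 window, 57.7% of the Elovl5 window and 71.0% of the Elovl4 window, against a median of 52.7% over all windows.

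Levels of different genes were compared as CPM per kilobase of exon. In conventional fat, Elovl5 was the most abundant elongase by the median, at 31.0 CPM per kb (range 24.7 to 37.8). Elovl1 followed at 11.3 (9.73 to 14.1) and Elovl6 at 7.35 (3.41 to 44.1). The ranges of Elovl1 and Elovl6 overlapped, while that of Elovl1 lay wholly below that of Elovl5. The remaining 4 were far lower, with medians of 0.370 CPM per kb for Elovl7, 0.117 for Elovl2, 0.0877 for Elovl3 and 0.0516 for Elovl4. Their ranges overlapped, except that every Elovl7 value lay above every Elovl4 value. In germ-free fat the order at the top was different: Elovl6 had the highest median, 39.8 CPM per kb (14.5 to 263), close to Elovl5 at 35.7 (26.5 to 77.6) with ranges that overlapped, and Elovl1 stood lower (8.57 to 13.2), below every value of both. The lower genes had medians of 0.270 for Elovl3, 0.240 for Elovl7, 0.129 for Elovl4 and 0.0691 for Elovl2, again with overlapping ranges.

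Elovl6 therefore made up a larger share of elongase transcript in germ-free fat. Its median share of the family's summed CPM per kb was 15.3% in conventional and 40.8% in germ-free libraries, while the shares of Elovl5 were 58.5% and 44.6% and those of Elovl1 23.5% and 11.8%. The family sum had a median of 51.4 CPM per kb (40.6 to 92.2) in conventional and 85.5 (58.3 to 354) in germ-free libraries. Per kb, Elovl6 exceeded Elovl5 in 1 of 12 conventional libraries (ZT06 replicate 2, ratio 1.17) and in 4 of 9 germ-free libraries. The median ratio was 0.262 and 0.913. Ranked by median CPM per kb among 18335 genes, Elovl6 stood at rank 6651 in conventional and rank 1306 in germ-free fat, and Elovl5 at 1663 and 1484.

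**Figure D1:**
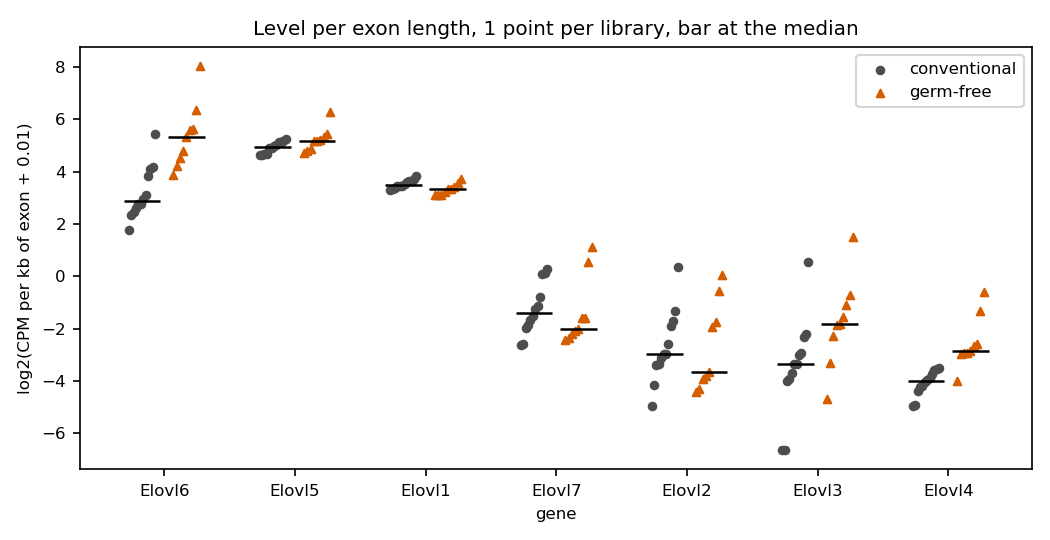
Level of each elongase per kilobase of exon, as log2(CPM per kb + 0.01) on the vertical axis, in conventional (grey circles, 12 libraries) and germ-free (orange triangles, 9 libraries) fat, with a bar at the median. Elovl5, Elovl1 and Elovl6 lie above the other genes in every library, and Elovl6 has the clearest shift between the arms, from a median of 7.35 to 39.8 CPM per kb.

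Elovl6, the elongase of palmitate, was higher in germ-free fat. Conventional libraries had 20.3 to 262 CPM (median 43.7, 71.3 ± 66.6, SD, n = 12) and germ-free libraries 86.1 to 1563 CPM (median 237, 374 ± 463, SD, n = 9). The ranges overlapped between 86.1 and 262 CPM. In such whole-tissue samples, fewer cells of a type and less RNA per cell cannot be told apart. With time of day in the model, the log2 fold change was 2.19 ± 0.58 (SE), a 4.57-fold difference, with an adjusted p of 0.0115 in edgeR's quasi-likelihood test over 18334 genes. Of the 6 elongases tested, 2 passed, Elovl6 higher and Elovl1 lower. In that comparison 15.2% of genes were called higher and 11.5% lower in germ-free fat, and the median log2 fold change of all genes was 0.03. The call held when any 1 of the 21 libraries was left out (log2 fold changes 1.77 to 2.52, adjusted p 0.00545 to 0.0286).

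By time, conventional Elovl6 was highest in the first hours after lights on. The 2 libraries at ZT02 had 85.2 and 108 CPM and those at ZT06 had 102 and 262 CPM. From ZT10 to ZT22 the 8 conventional libraries lay between 20.3 and 50.9 CPM, all below the 4 earlier ones. Germ-free values did not split in this way. They were 86.1 CPM at ZT02, 286 and 298 at ZT06, 486 and 136 at ZT10, 110 at ZT14, 163 at ZT18 and 237 and 1563 at ZT22. Every germ-free library was thus above both conventional libraries of its time at 5 of the 6 times, ZT02 being the exception, where the germ-free value lay between the conventional ones. At ZT14 and ZT18 this rests on 1 germ-free library each. The share of all genes that separate in this way is not given here. The ratio of means was 0.893 at ZT02, 1.60 at ZT06, 9.86 at ZT10, 2.84 at ZT14, 3.59 at ZT18 and 26.9 at ZT22.

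The arm difference was also fitted in 3 windows of 3 germ-free and 4 conventional libraries each. For Elovl6 the log2 fold change was 0.36 ± 0.72 (SE) in the morning (ZT02 and ZT06), with an adjusted p of 0.895 in edgeR's test. It was 2.64 ± 0.78 at dusk (ZT10 and ZT14, adjusted p = 0.0489) and 3.76 ± 0.86 at night (ZT18 and ZT22, adjusted p = 0.0110). Elovl6 thus passed at dusk and at night but not in the morning, in windows where 9.75%, 17.5% and 1.38% of genes passed. The test of equal effects had an adjusted p of 0.271 in edgeR (0.0261 unadjusted), so the windows were not shown to differ. It called 0.00545% of all genes. Of the 6 elongases tested, 0 passed in the morning (0 at an unadjusted p under 0.05, 0 in DESeq2), 2 at dusk, 2 at night and 0 in the test of equal effects (1 at an unadjusted p under 0.05, 0 in DESeq2). The night call was lost without conventional ZT22 replicate 1 (3.63 ± 1.11, adjusted p = 0.0505) or replicate 2 (3.05 ± 0.91, adjusted p = 0.0556). It was also lost without the whole of ZT22 (1.85 ± 0.75, adjusted p = 0.173) and without the libraries high in epididymis markers (2.04 ± 0.72, adjusted p = 0.122), and without germ-free ZT22 replicate 2 the fold change fell to 2.34 ± 0.55 (adjusted p = 0.0311). The dusk call was lost without 16 of the 21 libraries in turn (adjusted p up to 0.216, without germ-free ZT10 replicate 1). It was lost as well when all genes with a count were tested (adjusted p = 0.113). Of the single left-out libraries, it held without conventional ZT22 replicate 2, germ-free ZT10 replicate 2, germ-free ZT18 replicate 2 or either germ-free ZT22 library. It held too without ZT22 (2.63 ± 0.54, adjusted p = 0.0156), without the libraries high in epididymis markers (1.81 ± 0.41, adjusted p = 0.0484), and in DESeq2 (2.64 ± 0.71, adjusted p = 0.00359).

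Both germ-free ZT22 libraries carried high levels of epididymis epithelium markers, 500 CPM in replicate 1 and 399 CPM in replicate 2, where the other 19 libraries had 0.256 to 37.4 CPM. The 2 libraries differed in which markers these were. In replicate 1 all 10 markers were detected, led by Gpx5 (165 CPM) and Adam7 (112 CPM). In replicate 2 the sum was almost all Crisp1 (390 CPM), and 5 markers, Lcn8, Lcn9, Rnase9, Cst8 and Gpx5, were at 0. Crisp1 also made up most of the sum in conventional ZT18 replicate 2 (35.2 of 37.4 CPM) and germ-free ZT10 replicate 1 (24.7 of 25.1 CPM). In germ-free ZT06 replicate 1 it was 2.20 of 20.2 CPM. In several of the libraries called high, the sum thus rested mostly on a single gene. Over the 21 libraries the log2 marker sum had a Pearson r of 0.64 with Elovl6, 0.67 with Elovl5 and 0.61 with Elovl4 (a description, since the libraries share arm and time). Over the 14 libraries not high in duct or liver markers it was 0.83, 0.80 and 0.66. Without the 5 libraries high in these markers, which left 11 conventional and 5 germ-free libraries, Elovl6 was higher by 1.26 ± 0.35 (SE, log2), with an adjusted p of 0.0425 in edgeR's test. Without ZT22 it was 1.54 ± 0.43 (adjusted p = 0.0247). The part of these markers in the size of the difference was not tested.

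**Figure D2:**
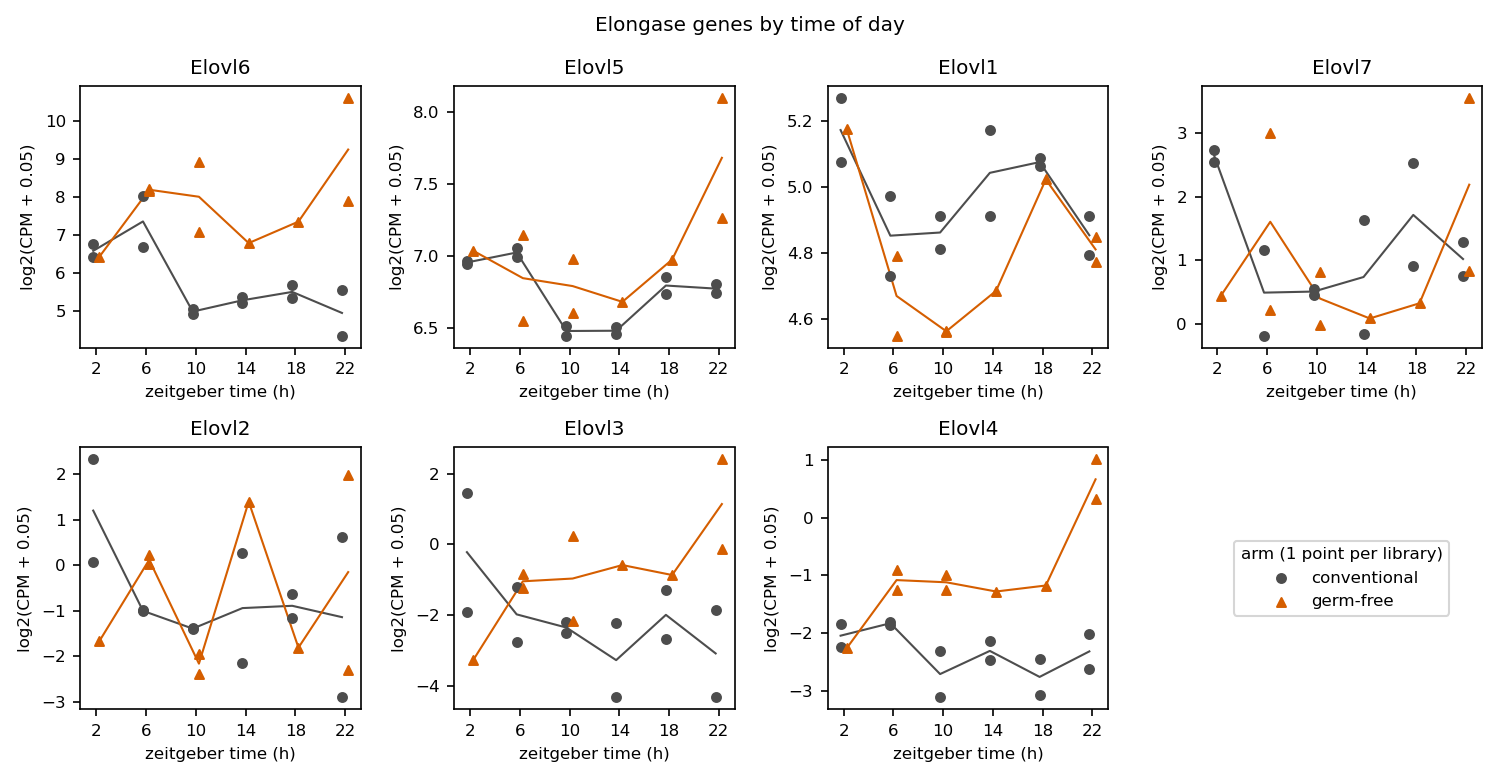
Level of each elongase as log2(CPM + 0.05) against zeitgeber time in hours, with 1 point per library and lines through the mean of these log2 values at each time (conventional grey circles, germ-free orange triangles). Germ-free Elovl6 and Elovl4 lie above both conventional libraries at every time but ZT02, and germ-free Elovl5 at every time but ZT06. At ZT02, ZT14 and ZT18 this rests on 1 germ-free library, and Elovl5 did not pass over all times (adjusted p = 0.107, edgeR). At ZT22, germ-free replicate 2 reaches 1563 CPM of Elovl6.

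Elovl5, which lengthens polyunsaturated chains, varied less between libraries than Elovl6 (SD of log2 CPM 0.22 against 1.02 in conventional and 0.47 against 1.27 in germ-free fat). Conventional libraries had 87.0 to 133 CPM (median 109, 109 ± 16.5, SD, n = 12) and germ-free libraries 93.5 to 273 CPM (median 126, 138 ± 54.6, SD, n = 9). The 2 conventional libraries of a time were close to each other at every time. The 3 germ-free pairs differed more, with 93.5 and 141 CPM at ZT06, 126 and 97.2 CPM at ZT10, and 154 and 273 CPM at ZT22. Over all times the log2 fold change was 0.29 ± 0.13 (SE), which did not pass (adjusted p = 0.107, edgeR). It passed only when germ-free ZT06 replicate 1 was left out (0.36 ± 0.12, adjusted p = 0.0327).

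At night Elovl5 was higher in germ-free fat, by 0.66 ± 0.20 (SE, log2, 1.58-fold), with an adjusted p of 0.0324 in edgeR's test. The 4 conventional night libraries had 106 to 116 CPM and the 3 germ-free ones 126, 154 and 273 CPM, so the arms did not overlap. How many of all genes separate like this at night is not given here, and 17.5% were called in that window. The adjusted p was 0.948 in the morning (-0.06 ± 0.19) and 0.402 at dusk (0.27 ± 0.19), and the test of equal effects across windows had an adjusted p of 0.375. The night call was lost without germ-free ZT22 replicate 2 (0.32 ± 0.13, adjusted p = 0.141), the library with 273 CPM. It was lost too without conventional ZT22 replicate 1 (0.58 ± 0.23, adjusted p = 0.120) or replicate 2 (0.56 ± 0.23, adjusted p = 0.137), and without ZT22 as a whole the difference was 0.19 ± 0.19 (adjusted p = 0.592). With all genes that had a count tested, the adjusted p was 0.0632. Without the libraries high in epididymis markers it was 0.13 ± 0.086 (adjusted p = 0.388).

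Elovl1, an elongase of saturated and monounsaturated chains, was slightly lower in germ-free fat. Its levels were 26.5 to 38.5 CPM (median 30.7) in conventional and 23.4 to 36.0 CPM (median 27.3) in germ-free libraries, so the ranges overlapped broadly. The log2 fold change was -0.16 ± 0.055 (SE), with an adjusted p of 0.0411 in edgeR's test. The call lay close to the threshold: it was lost without any 1 of 12 libraries (adjusted p up to 0.104), while the log2 fold change stayed between -0.19 and -0.14 whichever library was left out. These were conventional ZT02, ZT06 and ZT10 replicate 1 and ZT10, ZT14 and ZT22 replicate 2, germ-free ZT10 and ZT22 replicate 1, and germ-free ZT06, ZT10, ZT14 and ZT18 replicate 2. It was also lost when all 32101 genes with a count were tested (adjusted p = 0.0801).

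The decrease of Elovl1 was seen at dusk, where the 4 conventional libraries had 28.0 to 36.0 CPM and the 3 germ-free ones 23.5 to 25.7 CPM without overlap. How many of all genes separate like this at dusk is not given here, and 9.75% were called in that window. The log2 fold change of Elovl1 at dusk was -0.32 ± 0.086 (SE), with an adjusted p of 0.0295 in edgeR's test. In the morning it was -0.11 ± 0.085 (adjusted p = 0.602) and at night -0.05 ± 0.085 (adjusted p = 0.757), and the windows were not shown to differ (adjusted p = 0.427). The dusk call was lost without any 1 of 5 libraries (adjusted p up to 0.183), although the log2 fold change stayed between -0.36 and -0.28. These were conventional ZT10 replicates 1 and 2 and ZT14 replicate 2, and germ-free ZT10 replicate 1 and ZT14 replicate 2. At night all 4 Elovl1 values at ZT22 lay within 27.3 and 30.1 CPM, in the same libraries where Elovl6 differed 26.9-fold.

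**Figure D3:**
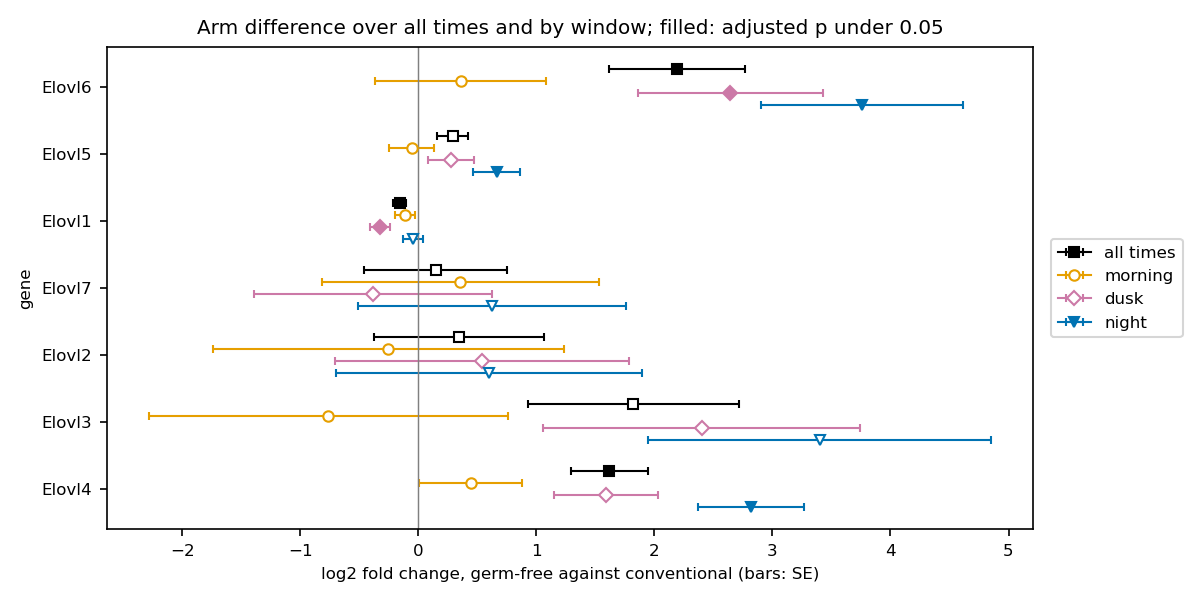
Log2 fold change of germ-free against conventional fat (horizontal axis, bars are SE) for each elongase over all times and in the morning, dusk and night windows, with filled symbols for an adjusted p under 0.05. Elovl6 reads 2.19 over all times and 3.76 at night, Elovl1 lies just left of 0, and Elovl2, Elovl3 and Elovl7 have the widest bars and no filled symbol. Elovl4 is from the fit without the filter on low counts.

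Elovl4, which makes very long chains, was scarce but differed clearly between the arms. It had 2 to 8 reads in conventional libraries (0.0665 to 0.238 CPM, median 0.158) and 6 to 63 reads in germ-free libraries (0.160 to 1.95 CPM, median 0.393). At these counts it did not pass the filter on low counts and was tested in the fit of all 32101 genes with at least 1 count. There it was higher in germ-free fat by 1.62 ± 0.33 (SE, log2, 3.07-fold), with an adjusted p of 0.00284 in edgeR's test, where 6.49% of genes were called higher. In the same fit Elovl6 had an adjusted p of 0.0291.

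Elovl4 was above both conventional libraries at each time from ZT06 on and below both at ZT02, with 1 germ-free library each at ZT02, ZT14 and ZT18. How many of all genes do so is not given here. Germ-free values were 0.160 CPM at ZT02, 0.371 and 0.481 at ZT06, 0.370 and 0.455 at ZT10, 0.363 at ZT14, 0.393 at ZT18, and 1.95 and 1.19 at ZT22. In the fit without the filter the log2 fold change was 0.44 ± 0.44 (SE) in the morning, with an adjusted p of 0.913, and 1.59 ± 0.44 at dusk (adjusted p = 0.0549, a window in which 3.24% of genes passed). It passed at night, at 2.82 ± 0.45 (adjusted p = 0.00239, edgeR), where 7.15% of genes did. The windows were not shown to differ (adjusted p = 0.326). The overall call held when any 1 library was left out (adjusted p up to 0.0112) and without ZT22 (1.16 ± 0.32, adjusted p = 0.0279). It was lost without the 5 libraries high in epididymis markers, where the fold change was 1.11 ± 0.37 (adjusted p = 0.103). The night call was lost without ZT22 (1.95 ± 0.75, adjusted p = 0.234) and without those 5 libraries (1.57 ± 0.97, adjusted p = 0.552).

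Elovl3, known from brown fat, liver and skin, was variable. It had 0 to 95 reads in conventional libraries (0 to 2.71 CPM, median 0.165) and 2 to 237 reads in germ-free libraries (0.0533 to 5.24 CPM, median 0.508). The highest values of the arms were each a single library, conventional ZT02 replicate 2 and germ-free ZT22 replicate 2. No read was counted in conventional ZT14 replicate 2 and ZT22 replicate 2, which allows up to 0.106 and 0.0848 CPM (3 counts, counting error only). The log2 fold change of 1.82 ± 0.90 (SE) did not pass (adjusted p = 0.148, edgeR), nor did the difference at night (10.6-fold, adjusted p = 0.124). It passed when germ-free ZT02 replicate 2 was left out (2.36 ± 0.76, adjusted p = 0.0301) or the libraries high in duct markers were (2.42 ± 0.79, adjusted p = 0.0450), and in DESeq2 (1.94 ± 0.75, adjusted p = 0.0354). Without the libraries high in epididymis markers it was 0.36 (adjusted p = 0.866). Conventional ZT02 replicate 2 was also the library with most liver marker RNA, 744 CPM against a median of 101 CPM over all libraries, and its part in the Elovl3 value was not tested.

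Elovl7 and Elovl2 did not pass in any window and followed markers of other tissues. Elovl7 had 0.834 to 6.56 CPM in conventional and 0.939 to 11.6 CPM in germ-free libraries, with a log2 fold change of 0.15 ± 0.61 (SE) and an adjusted p of 0.897 in edgeR's test. Its 5 highest values, from 5.68 to 11.6 CPM, were in 5 of the 6 libraries high in ciliated duct markers, and the other library, conventional ZT14 replicate 2, had 3.05 CPM and the next place. Over 21 libraries its log2 CPM had a Pearson r of 0.91 with the log2 sum of the duct markers, and of 0.49 over the 14 libraries not high in duct or liver markers. All 10 duct markers were detected in both arms, with sums of 4.77 to 194 CPM in conventional and 4.33 to 469 CPM in germ-free libraries. Without the libraries high in them the fold change of Elovl7 was -0.21 ± 0.24 (adjusted p = 0.541).

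Elovl2, the elongase of the longest polyunsaturated chains, had 0.0847 to 4.94 CPM in conventional and 0.142 to 3.91 CPM in germ-free libraries. Its log2 fold change was 0.34 ± 0.72 (SE), with an adjusted p of 0.781 in edgeR's test. The 3 highest values were 4.94 CPM in conventional ZT02 replicate 2, 3.91 CPM in germ-free ZT22 replicate 1 and 2.57 CPM in germ-free ZT14 replicate 2. These were the 3 libraries with most liver marker RNA (744, 267 and 521 CPM). All 12 liver markers were detected in both arms, and Pearson's r between Elovl2 and their sum was 0.80 over 21 libraries and 0.57 over the 14 not high in duct or liver markers. With the sum of testis germ cell markers it was 0.59 and, over those 14, 0.77. The part of liver, testis and duct RNA in the values of Elovl2 and Elovl7 was not tested further.

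**Figure D4:**
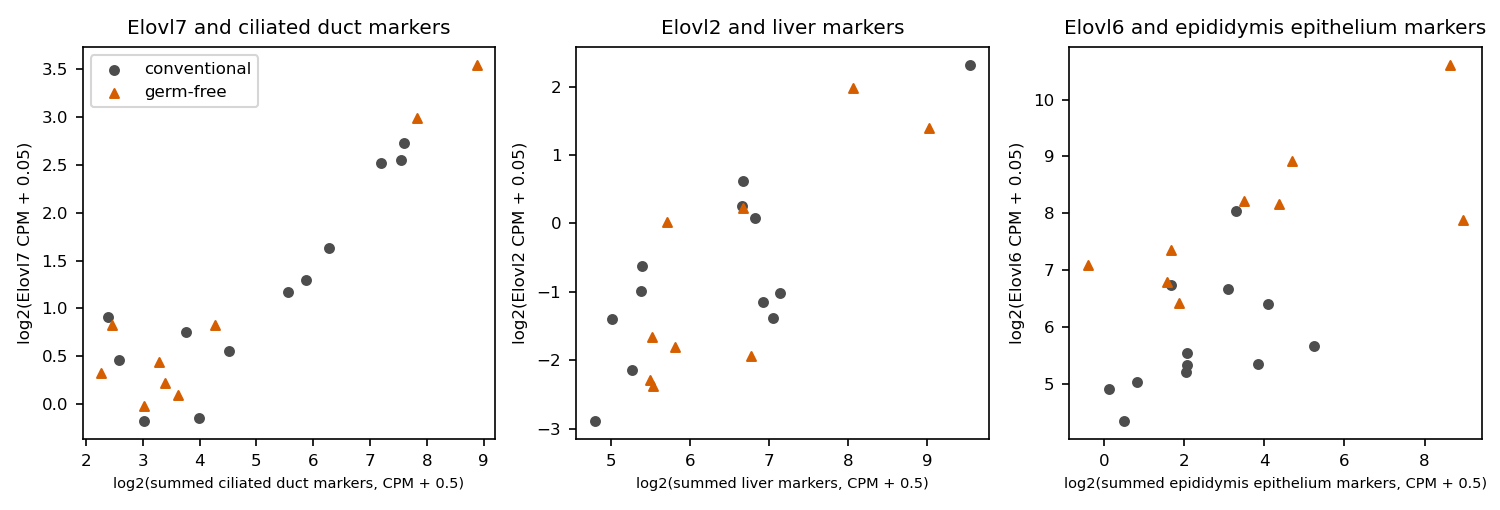
Elovl7 against the sum of ciliated duct markers, Elovl2 against liver markers and Elovl6 against epididymis epithelium markers, all as log2 values of CPM (with 0.05 added to the gene and 0.5 to the sum), with 1 point per library. Elovl7 follows the duct markers in both arms (r = 0.91) and Elovl2 the liver markers (r = 0.80). Elovl6 has an r of 0.64 with the epididymis sum, which is highest in the 2 germ-free ZT22 libraries.

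Daily rhythms were tested as a 24 h cosine in each arm. In edgeR's test none of the 6 elongases that passed the filter was called in conventional fat (0 at an unadjusted p under 0.05, 0 in DESeq2), where 0.796% of genes were. None was called in germ-free fat either (1 at an unadjusted p under 0.05, 1 in DESeq2), where 4.52% were. Elovl5 was nearest, with a germ-free log2 amplitude of 0.44 ± 0.11 (SE), a peak at ZT 22.5 and an adjusted p of 0.0590. It was called without germ-free ZT10 replicate 1, ZT22 replicate 1 or ZT02 replicate 2 (adjusted p 0.0399 to 0.0455). Without ZT22 replicate 2 the amplitude was 0.20 ± 0.085 (adjusted p = 0.289), and without ZT22 as a whole 0.16 ± 0.11 (adjusted p = 0.591). For Elovl6 the log2 amplitudes were 0.999 ± 0.402 in conventional fat, peaking at ZT 4.64 (adjusted p = 0.409), and 0.76 ± 0.54 in germ-free fat, peaking at ZT 23.6 (adjusted p = 0.523).

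The direct test of a difference in rhythm called no elongase (0 at an unadjusted p under 0.05, 0 in DESeq2) and no gene at all (0%) in edgeR. The smallest adjusted p among the 6 was 0.678, for Elovl5. Time was also fitted as a 6-level factor in the 12 conventional libraries alone, which called 4.01% of genes. Elovl5 was the single elongase called (adjusted p = 0.0105, edgeR), and Elovl6 had an adjusted p of 0.0632. Conventional Elovl5 had 87.0 to 91.1 CPM in the 4 libraries of ZT10 and ZT14 and 106 to 133 CPM in the other 8, without overlap. How many of all genes split in this way is not given here. The lowest conventional values of both genes thus lay at or after ZT10, for Elovl5 until ZT14 and for Elovl6 through ZT22. For Elovl6 this only describes the values, since neither test of time called it in conventional fat.

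The enzymes that complete the elongation cycle differed less than Elovl6. Of 7, 6 passed the filter, 4 were higher and none was lower in germ-free fat, against 15.2% and 11.5% of all genes, with a median log2 fold change of 0.17 against 0.03 over all genes. The ketoacyl reductase Hsd17b12 rose from 153 ± 37.8 to 238 ± 64.5 CPM (SD, n = 12 and 9). On the log2 scale this was 0.61 ± 0.14 (SE), with an adjusted p of 0.00552 in edgeR's test. The enoyl reductase Tecr rose by 0.53 ± 0.13 (adjusted p = 0.00872). Among the dehydratases, listed in the table as Ptpla, Ptplb, Ptplad1 and Ptplad2, Hacd1 (0.19 ± 0.061, adjusted p = 0.0300) and Hacd3 (0.16 ± 0.052, adjusted p = 0.0332) passed. Hacd2 (-0.13 ± 0.073, adjusted p = 0.218) and Hacd4 (-0.17 ± 0.095, adjusted p = 0.190) did not, and Tecrl was below the filter. At night 3 of the 6 were higher, where 17.5% of all genes were called in either direction. Tecr and Hsd17b12 had Pearson's r of 0.92 and 0.89 with Elovl6 over 21 libraries.

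Of 9 genes for acetyl-CoA, malonyl-CoA and palmitate supply, which provide the substrates of elongation, 6 were higher in germ-free fat and none lower, where 15.2% of all genes were higher and 11.5% lower. Their median log2 fold change was 1.17, and 1 of the 9 was called without the 5 libraries high in epididymis markers. That setting called 1983 of all 18334 genes in either direction, against 4909 in the main fit. Acaca, acetyl-CoA carboxylase and so the source of malonyl-CoA, went from 1393 ± 768 to 3251 ± 1630 CPM (SD). Its log2 difference was 1.22 ± 0.29 (SE), with an adjusted p of 0.00622 in edgeR. Acss2, which makes acetyl-CoA from acetate, rose by 1.49 ± 0.39 (adjusted p = 0.0114). The mitochondrial citrate carrier Slc25a1 rose by 1.07 ± 0.29 (adjusted p = 0.0130) and malic enzyme, Me1, by 1.30 ± 0.38 (adjusted p = 0.0191). Acacb (-0.07 ± 0.20, adjusted p = 0.856) and the malonyl-CoA decarboxylase Mlycd (0.16 ± 0.061, adjusted p = 0.0612) did not pass. Of the 6 called, Elovl6 had a fold change above each, and its r with Acaca, Acss2, Slc25a1 and Me1 was 0.96 to 0.98 over all 21 libraries and 0.94 to 0.97 over the 12 conventional ones.

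Desaturases, which introduce double bonds into the chains that elongases make or use, were over all times called in a share near that of all genes. Of 8, 2 were higher and none lower, against 15.2% and 11.5% of all genes (median log2 fold change 0.50): Scd3 by 0.76 ± 0.23 (SE, adjusted p = 0.0243, edgeR) and Scd1 by 0.47 ± 0.16 (adjusted p = 0.0382). Fads1 (0.23 ± 0.12, adjusted p = 0.187) and Fads2 (0.58 ± 0.36, adjusted p = 0.258), which act in the same polyunsaturated pathway as Elovl5 and Elovl2, did not pass. In the fit over all times, the counts without ZT22 were 3 of 6 cycle partners and 4 of 9 supply genes. Without the 5 libraries high in epididymis markers they were 1 of 6 and 1 of 9. Neither setting called a desaturase. With all genes that had a count tested, the counts were 2 partners, 5 supply genes and no desaturase. Over all genes the main fit called 4909 of 18334 in either direction. Of the same genes, 3642 were called without ZT22 and 1983 without the libraries high in epididymis markers. With all 32101 genes that had a count tested, 3842 were called.

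**Figure D5:**
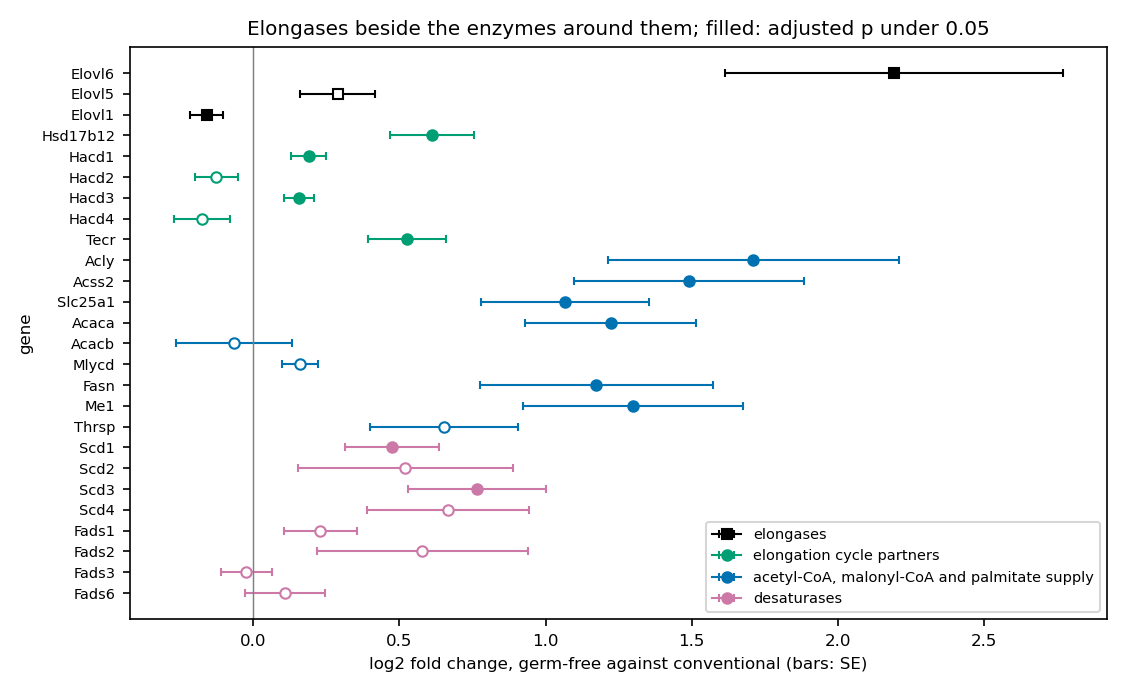
Log2 fold change of germ-free against conventional fat over all times (horizontal axis, bars are SE) for 3 elongases, the other enzymes of the elongation cycle, genes of acetyl-CoA, malonyl-CoA and palmitate supply, and desaturases, with filled symbols for an adjusted p under 0.05. Elovl6 at 2.19 lies to the right of every other gene shown, and 4 of 6 cycle partners and 6 of 9 supply genes are filled.

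Genes that use or handle the long chains were mixed. Of 11 genes of very long chain fatty acid activation and peroxisomal oxidation, 5 were higher and none lower, against 15.2% and 11.5% of all genes (median log2 fold change 0.19). They included the peroxisomal transporter Abcd3 (0.36 ± 0.061, SE, adjusted p = 0.000825, edgeR), the fatty acid transporter Slc27a1 (0.55 ± 0.12, adjusted p = 0.00266) and the peroxisomal thiolase Acaa1a (0.22 ± 0.055, adjusted p = 0.00857). Without ZT22 4 of the 11 were higher, and without the 5 libraries high in epididymis markers 2. Of all 18334 genes, these settings called 3642 and 1983 in either direction, against 4909 in the main fit. Abcd2 (0.00 ± 0.067, adjusted p = 0.979) did not pass. Ceramide synthases, which take up long or very long acyl chains, had 1 of 5 higher and 1 lower, counts near those shares of all genes: Cers4 by 0.32 ± 0.050 (adjusted p = 0.000471) and Cers6 by -0.29 ± 0.063 (adjusted p = 0.00343). They are listed in the table as Lass4 and Lass6. Cers2 (0.03 ± 0.046, adjusted p = 0.716) did not pass.

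Likeness of pattern was described by Pearson's r of log2 CPM over the 21 libraries, among genes of a mean log2 CPM of at least 1. The genes most like Elovl6 were Tkt, a transketolase of the pentose phosphate pathway (0.98), Sorl1 (0.98) and Acss2 (0.98), and the same 3 led without germ-free ZT22 replicate 2 (0.97 each). Those most like Elovl5 were Pmvk (0.88), Pfkl (0.88) and Lactb2 (0.87), which fell to 0.75 to 0.78 without that library. For Elovl1 they were Rbm28 (0.85), Tuba1a (0.83) and Exog (0.83), and for Elovl3 Mtfp1 (0.80), Arhgap5 (0.78) and Nudt7 (0.77), which had 0.66 to 0.74 without it. Elovl7 was most like Fam176a (0.97), Enah (0.96) and the ciliary rootlet gene Crocc (0.95). Elovl2 was most like Mat1a (0.84), the fibrinogen chain Fga (0.83) and Ass1 (0.83), genes known from liver. Among the elongases themselves, Elovl6 had an r of 0.75 with Elovl5 (0.58 without germ-free ZT22 replicate 2) and of -0.44 with Elovl1.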

How the data were processed

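The authors deposited unnormalized exon counts of 38087 genes, and exon lengths. The submitters' processing notes name STAR 2.4.0i and mm10. How reads were counted, with which strand setting and on which annotation, is not given in the sources used here. Per the labels' protocols, libraries were stranded total RNA after ribosomal RNA depletion. The deposited counts were tested with edgeR 4.0.16 in R 4.3.3 (quasi-likelihood F test, robust) after filterByExpr by arm, which kept 18334 genes including 6 elongases, and TMM scaling. Models held time as a 6-level factor plus the arm, the arm effect per window, or a mean, cosine and sine per arm. P-values were adjusted by Benjamini-Hochberg over all genes, with a threshold of 0.05. Alternatives used DESeq2 1.42.0, other filters and left-out libraries. All list and marker genes were matched, by symbol or by gene ID through a table of current names. Members and lists were chosen with earlier results of these data known. Named genes are the 7 elongases, all cycle partners, up to 4 called and 2 uncalled genes per list, and the 3 genes most like each elongase; some list genes are not reported here. The fits were also run on simulated counts with known changes. Those changes were placed in better-expressed genes, which leaves out genes as low as Elovl3 and Elovl4, and the outcome is not reported here. Plots used Python 3.11.15 and matplotlib 3.10.9.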

Additional observations from a re-analysis of the deposited data

Results flagged for a closer look

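In 3 of the 7 elongases, a single germ-free library stood apart from the other 8, by a gap to its neighbour that exceeded 0.493 of the range of the 9 libraries. All 3 were germ-free ZT22 replicate 2, with 1563 CPM of Elovl6, 273 CPM of Elovl5 and 5.24 CPM of Elovl3. Without it the germ-free means were 225 ± 132 CPM (SD, n = 8) for Elovl6, 121 ± 21.6 CPM for Elovl5 and 0.528 ± 0.353 CPM for Elovl3. For normally distributed values such a gap is met by chance in about 1 in 20 groups. The rule was applied here to CPM rather than log2 values, so that rate need not hold. The 3 flags share 1 library. That library had 399 CPM of epididymis epithelium markers, nearly all of it Crisp1. Its sum of ciliated duct markers (18.9 CPM) was within the range of the other germ-free libraries. Its sum of liver markers (44.6 CPM) was the lowest of the germ-free libraries and within the conventional range (27.3 to 744 CPM). The part of these markers in its values was not tested. Single conventional libraries also stood high. ZT02 replicate 2 had 2.71 CPM of Elovl3 (next highest 0.387) and 4.94 CPM of Elovl2 (next 1.48). Conventional ZT06 replicate 2 had 262 CPM of Elovl6 (next 108).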

How the results depend on the processing

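Alternatives were run for the counts of elongases past the threshold in edgeR. The arms called 2 of 6. That became 1 with the replicate block, without the libraries high in liver markers, without those high in epididymis markers and with no time term, 0 with ZT06, ZT10 and ZT22 alone, and 1 to 3 when single libraries were left out. With those 3 times alone Elovl6 had 2.95 ± 0.83 (adjusted p = 0.0547). DESeq2 called 3 of the 6 over all times. At dusk the count of 2 became 1 with RLE size factors, the replicate block, the duct markers as a covariate, 12 group means and without the libraries high in epididymis markers, 0 with no filter and without the libraries high in duct or in liver markers, and 0 to 2 without single libraries. At night the count of 2 became 1 without the libraries high in liver markers and with 12 group means, 0 without ZT22 and without the libraries high in epididymis markers, and 0 to 2 without single libraries. DESeq2 called 3 at night. The conventional rhythm count of 0 became 1 (Elovl5) with the 6-level factor. The germ-free one became 1 in DESeq2 (Elovl5) and 1 without ZT22 (Elovl1, adjusted p = 0.0410), and was 0 to 1 without single libraries. The counts in the morning, for the difference between windows and for the difference in rhythm were 0 under all their alternatives.

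Over all genes, and apart from leaving out single libraries, the arms called 4909, against 1666 with ZT06, ZT10 and ZT22 alone and 1983 without the libraries high in epididymis markers. Dusk called 1788, against 1039 with no filter, 2 without the libraries high in liver markers and 769 without those high in epididymis markers. Night called 3209, against 451 without ZT22 and 1363 without the libraries high in epididymis markers. The morning called 253 (1 to 958), rhythm 146 in conventional (43 to 781) and 828 in germ-free fat (419 to 2020), the difference between windows 1 (0 to 749, the last in DESeq2) and the difference in rhythm 0 (1392 at an unadjusted p under 0.05, 40 in DESeq2).

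Signs of the log2 fold changes changed only for Elovl2 and Elovl7, which never passed. Elovl2 had -0.13 without the libraries high in duct markers, -0.0085 without ZT22 and -0.30 to 0.73 without single libraries. Elovl7 had -0.21 without the libraries high in duct markers, -0.36 without ZT22, -0.19 without those high in epididymis markers and -0.34 to 0.47 without single libraries. The settings without ZT22 and without the libraries high in epididymis markers were chosen after seeing the data. Where no cause is shown by the setting itself, the cause was not tested.

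The replicate numbers were not treated as pairs in the main fits. Correlations of same-numbered deviations ran from -0.57 to 0.50 over 36 pairs of groups, with a median of 0.17 and 21 over 0.1. These values do not settle whether libraries of the same number have something in common. With the replicate block, Elovl6 kept its call over all times (adjusted p = 0.0191) and Elovl1 lost it (adjusted p = 0.0626). Depth limits Elovl3 and Elovl4 most, with counts from 0 and 2 reads per library.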

Other observations

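Regulators of lipogenesis and genes of thermogenic adipocytes were listed beside the elongases. Of 12 regulators, 3 were higher and 1 lower in germ-free fat (median log2 fold change 0.12, against 15.2% and 11.5% of all genes). Insig1, which restrains the processing of sterol regulatory element-binding proteins and is also their target, rose by 1.15 ± 0.30 (SE, log2, adjusted p = 0.0101, edgeR), the ChREBP partner Mlx by 0.44 ± 0.12 (adjusted p = 0.0145) and Ppara by 0.34 ± 0.11 (adjusted p = 0.0392). Ppard fell by 0.43 ± 0.11 (adjusted p = 0.00793). Srebf1 (0.32 ± 0.17, adjusted p = 0.192) and Mlxipl (0.06 ± 0.19, adjusted p = 0.851), the genes of SREBP-1 and ChREBP, did not pass over all times. At night Srebf1 was higher by 0.89 ± 0.22 (adjusted p = 0.0147, edgeR), while Mlxipl did not pass (0.58 ± 0.27, adjusted p = 0.156). In that window 4 of the 12 regulators were higher and none lower, where 17.5% of all genes were called in either direction. Of 9 tested genes of thermogenic adipocytes, a cell type in which Elovl3 is known to be high, 4 were higher over all times and none lower: Cox8b by 1.69 ± 0.30 (adjusted p = 0.00106), Dio2 by 1.66 ± 0.33 (adjusted p = 0.00188), Cidea by 1.78 ± 0.39 (adjusted p = 0.00380) and Ppargc1a by 0.52 ± 0.16 (adjusted p = 0.0288). Prdm16 (0.07 ± 0.11, adjusted p = 0.683) did not pass, and Ucp1, the defining gene of these cells, was below the filter (conventional mean 0.0284 ± 0.0394 CPM, germ-free mean 0.0426 ± 0.0266 CPM, SD). Without the 5 libraries high in epididymis markers, no regulator was higher and 2 were lower, and 2 thermogenic genes were higher. In that setting 1983 of all 18334 genes were called in either direction, against 4909 in the main fit.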
